A study of Mus musculus with 6 samples.

Results

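The fibroblast growth factor (FGF) receptors and their co-receptors were followed in mouse spermatogonia. The family was taken by gene symbol as Fgfr1, Fgfr2, Fgfr3, Fgfr4, Fgfrl1, Kl and Klb, and all 7 genes were found among the 24973 genes measured. Testes of FVB/N mice, 2 to 3 months old, were sorted into 2 populations. The β-2M-SPα-6+c-kit- cells are undifferentiated spermatogonia, which include the stem cells, and the β-2M-SPα-6+c-kit+ cells have begun to differentiate. They are named by c-kit alone from here on. The cells lacked β-2 microglobulin, a marker of somatic cells, carried α-6 integrin and were in the side population (SP), which pumps out the Hoechst dye. No gene was altered and no agent was given to either group. There were 3 samples per population, each of 10000 cells from 1 mouse, and it is not stated if the same mice served for both. Expression was read on Affymetrix Mouse Gene ST arrays as 1 log2 value per gene.

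FGF receptors are tyrosine kinases that span the cell membrane. An FGF binds together with heparan sulfate, or for the hormone-like FGFs together with a Klotho protein, and pairs the receptors, which then signal through adaptors such as FRS2 to RAS and ERK. FGF2 is added with GDNF to cultures of mouse spermatogonial stem cells to keep them dividing, and both factors raise Etv5 and related genes there. Alternative exons of Fgfr1, Fgfr2 and Fgfr3 set which FGFs bind, and a value per gene does not tell these forms apart.

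Of the 7 genes, Fgfr3 and Fgfrl1 were lower in c-kit- cells, the other 5 missed the threshold and none was higher. Fgfr3 was 2.09-fold lower (95% interval 1.43 to 3.04) and Fgfrl1 1.42-fold lower (1.19 to 1.69). Fgfr1 had all its c-kit- values above its c-kit+ values and did not pass. Fgfr2, Fgfr4, Kl and Klb overlapped between the populations. Over all genes, 8.79% were called lower and 9.33% higher in c-kit- cells, and the count of 2 in 7 is too small to set the family apart from that background. At an unadjusted p under 0.05, 3 of the 7 genes passed, against 29.9% of all genes. When calls were made instead at an unadjusted p under 0.02 with over 1.5-fold change, Fgfr3 alone was lower and none was higher by limma's p (5.81% of all genes lower, 7.14% higher). With the p of a per-gene test that shares no variance between genes, none of the 7 passed in either direction (4.71% lower, 5.87% higher). Tests were limma's moderated test with p adjusted by Benjamini-Hochberg over all genes, and a gene passed at an adjusted p under 0.05. Log2 fold changes are c-kit- minus c-kit+ throughout.

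**Figure D1:**
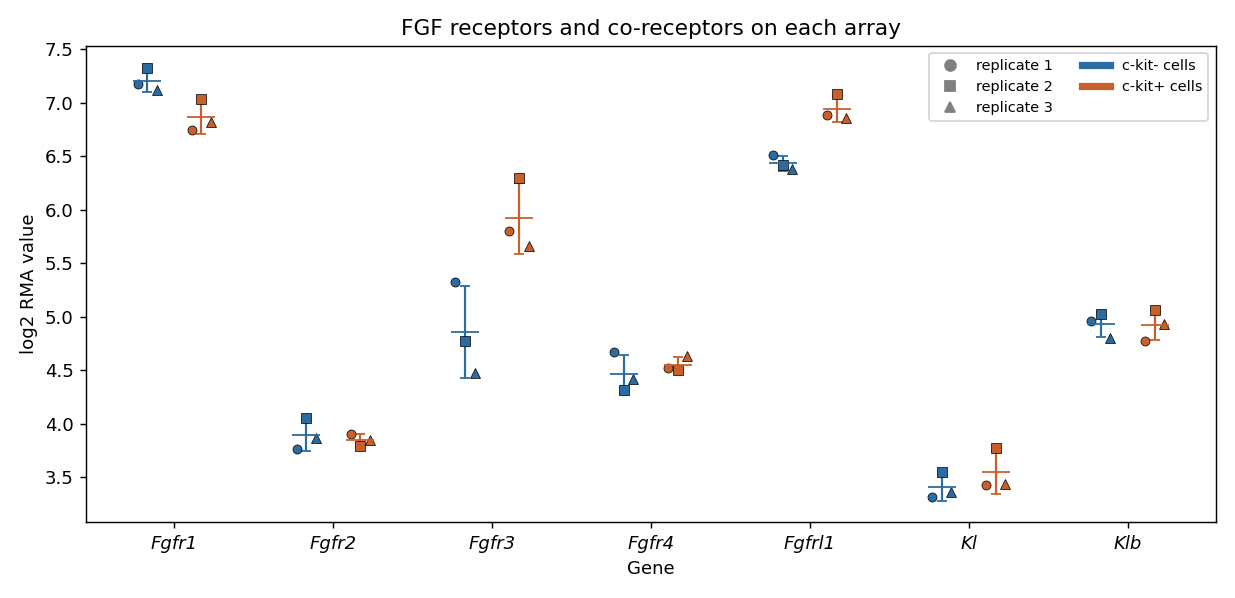
Log2 value (vertical axis) of each of the 7 genes (horizontal axis) on the 3 c-kit- arrays (blue) and the 3 c-kit+ arrays (orange), with symbols for replicates, bars for means and whiskers for SD. Fgfr3 and Fgfrl1 have every c-kit+ array above every c-kit- array and Fgfr1 the reverse, and heights of different genes are not comparable because their probes differ.

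Kit, the gene of the sorted receptor, was at 6.07, 6.35 and 6.03 on the c-kit- arrays and at 9.84, 9.85 and 9.69 on the c-kit+ arrays, as the labels require. All 7 listed genes of undifferentiated spermatogonia were higher in c-kit- cells, and 5 of 6 of differentiating spermatogonia were lower. The lists were chosen with earlier results of these data known, and the second holds Kit itself. These counts therefore describe the lists and test nothing. Array medians lay between 5.25 and 5.33. Of 10 Sertoli cell, 6 Leydig cell, 7 interstitial mesenchymal and 6 spermatid markers none passed the test. That result compares the populations and does not show that these cells were absent from both. The mean of the spermatid markers was 9.85 to 10.37 on the c-kit- and 9.94 to 10.19 on the c-kit+ arrays. For the Sertoli markers it was 6.02 to 6.14 and 6.07 to 6.25, in the same order. For the Leydig markers it was 3.42 to 3.54 and 3.48 to 3.87. Of 8 peritubular myoid cell markers 3 were lower in c-kit- cells (Tagln, Smtn and Mylk), and of 9 leukocyte markers 3 were lower (Cd74, Cd3e and C1qb). Of 5 germ cell markers 2 were lower (Tex101 and Sycp3). Among 8 endothelial markers 4 were higher (Cdh5, Tek, Flt1 and Pecam1), with means of 5.07 to 5.20 on the c-kit- and 4.62 to 4.80 on the c-kit+ arrays. Over all genes, 8.79% were lower and 9.33% higher.

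Fgfr3 (gene ID 14184, chromosome 5) encodes a receptor that restrains bone growth and that marks primitive spermatogonia in the human testis. It was at 5.32, 4.77 and 4.48 on c-kit- replicates 1, 2 and 3, and at 5.80, 6.29 and 5.66 on c-kit+ replicates 1, 2 and 3. All c-kit- arrays were below all c-kit+ arrays, with a gap of 0.34 between the groups, although the c-kit- arrays alone spanned 0.84. The means were 4.86 ± 0.43 and 5.92 ± 0.33 (log2 values, SD, n = 3), the log2 fold change -1.06 (standard error 0.24, adjusted p = 0.0162 from limma). A two-sided exact permutation test gave p = 0.1, the smallest that 3 arrays against 3 can give. The call was lost without c-kit- replicate 2 (log2 fold change -1.02, adjusted p = 0.0522 from limma) and without c-kit+ replicate 2 (-0.87, adjusted p = 0.0564 from limma). The gene table also lists a pseudogene, Fgfr3-ps, on chromosome 1, which was not measured apart from Fgfr3 here.

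Fgfrl1 (gene ID 116701, chromosome 5) encodes a receptor that binds FGFs and heparan sulfate but has no tyrosine kinase domain. It was at 6.51, 6.41 and 6.38 on c-kit- replicates 1, 2 and 3, and at 6.88, 7.08 and 6.85 on c-kit+ replicates 1, 2 and 3. The c-kit- arrays lay close together, within 0.13, and below all c-kit+ arrays. The means were 6.43 ± 0.07 and 6.94 ± 0.13 (log2 values, SD, n = 3), the log2 fold change -0.51 (standard error 0.11, adjusted p = 0.0147 from limma). Here too the exact permutation test gave its smallest p, 0.1. The call was lost without c-kit- replicate 3 (-0.48, adjusted p = 0.0503 from limma) or c-kit+ replicate 2 (-0.43, adjusted p = 0.0520 from limma).

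**Figure D2:**
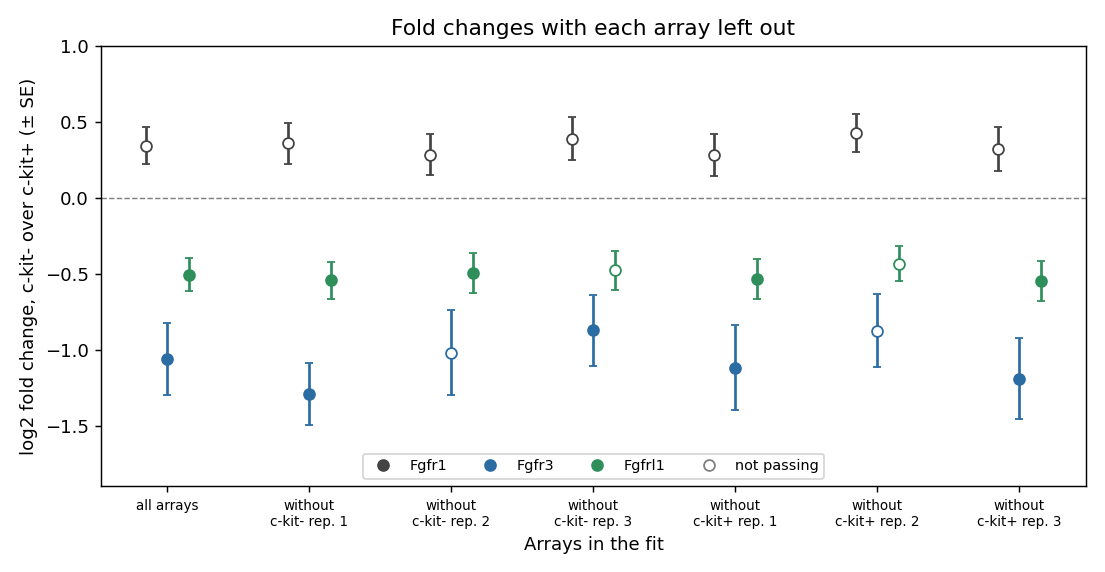
Log2 fold change of Fgfr1, Fgfr3 and Fgfrl1 (vertical axis, c-kit- over c-kit+, whiskers are the standard error from limma) with all arrays and with each array left out in turn (horizontal axis), where filled symbols passed at an adjusted p under 0.05. Fgfr3 moved between -1.29 and -0.87 and Fgfrl1 between -0.55 and -0.43, each losing its call in 2 of the 6 fits.

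The bases before the start sites of both genes are printed to show what lies there, because they were the 2 genes that passed. The sequences are from RefSeq promoter windows of GRCm38.p6, which hold 6 of the 7 genes, and the 250 bases before each start are given from 5′ to 3′ on the gene's strand. Capitals mark the GC box GGGCGG, the E-box CACGTG and the ETS site CCGGAAGT, on either strand. Fgfr3 has 2 listed starts, at chr5:33721474-33721723 and chr5:33722056-33722305 (plus strand), and Fgfrl1 has 1, at chr5:108693979-108694228 (plus strand).
Fgfr3, first start: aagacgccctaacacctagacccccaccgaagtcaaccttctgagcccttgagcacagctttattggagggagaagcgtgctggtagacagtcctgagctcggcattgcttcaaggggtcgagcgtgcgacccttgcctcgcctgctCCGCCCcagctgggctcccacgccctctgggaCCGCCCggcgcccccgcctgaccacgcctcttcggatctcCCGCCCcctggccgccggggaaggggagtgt
Fgfr3, second start: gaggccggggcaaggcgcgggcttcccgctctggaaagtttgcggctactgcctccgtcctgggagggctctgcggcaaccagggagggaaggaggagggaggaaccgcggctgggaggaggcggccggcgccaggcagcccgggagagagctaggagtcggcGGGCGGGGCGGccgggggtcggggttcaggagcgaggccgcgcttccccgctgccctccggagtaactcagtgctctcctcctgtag
Fgfrl1: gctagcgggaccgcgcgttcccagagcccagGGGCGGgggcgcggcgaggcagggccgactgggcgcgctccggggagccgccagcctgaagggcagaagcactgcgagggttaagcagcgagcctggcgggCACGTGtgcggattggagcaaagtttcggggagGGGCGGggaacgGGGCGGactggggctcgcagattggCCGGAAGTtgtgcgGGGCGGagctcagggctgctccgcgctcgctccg
The Fgfr3 windows held 3 and 2 GC boxes and the Fgfrl1 window 4, and 32.7% of all 32851 windows hold at least 1. The Fgfrl1 window also held 1 E-box and 1 ETS site, found in 6.02% and 2.88% of all windows, and the Fgfr3 windows held neither. The GC boxes of the second Fgfr3 start overlap each other. GC content was 66.8% and 72.8% for Fgfr3 and 73.6% for Fgfrl1, against a median of 52.4% over all windows. The windows of the genes that did not pass were at 44.0% (Fgfr2), 48.0% (Klb), 64.0% (Fgfr4) and 66.8% (Kl), with 0, 0, 2 and 2 GC boxes. None of the 7 windows held the TATA box TATAAA (12.4% of all windows) or a retinoic acid response element, the direct repeat of AGGTCA with a spacer of 5 bases (3 of all windows). A match is a run of letters and not a shown binding site.

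Fgfr1 (gene ID 14182, chromosome 8) encodes the receptor through which FGF2 acts on many cell types. It was at 7.18, 7.33 and 7.11 on the c-kit- arrays and at 6.74, 7.03 and 6.82 on the c-kit+ arrays (replicates 1, 2 and 3). The groups did not overlap, but the gap of 0.08 between them was smaller than the spread within either group. The means were 7.21 ± 0.11 and 6.86 ± 0.15 (log2 values, SD, n = 3), with a log2 fold change of 0.34 (95% interval 0.07 to 0.62, unadjusted p = 0.0210, adjusted p = 0.0908 from limma). It did not pass with any array left out (adjusted p = 0.0694 to 0.239 from limma). In all, 3 of the 7 genes had groups that did not overlap, as did 35.1% of all genes. The c-kit- arrays were above in 1 of these (15.9% of all genes) and the c-kit+ arrays in 2 (19.1%).

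Fgfr2 (gene ID 14183, chromosome 7) encodes a receptor needed for FGF9 signaling in the fetal testis. It was at 3.76, 4.06 and 3.87 on the c-kit- and at 3.91, 3.80 and 3.85 on the c-kit+ arrays. Its log2 fold change was 0.05 (95% interval -0.22 to 0.31, adjusted p = 0.840 from limma), and the c-kit+ values all lay within the range of the c-kit- values. Fgfr4 (gene ID 14186, chromosome 13), a receptor of bile acid control in the liver, was at 4.67, 4.31 and 4.41 against 4.52, 4.50 and 4.63. Its log2 fold change was -0.08 (95% interval -0.36 to 0.20, adjusted p = 0.717 from limma), and again the c-kit+ values lay within the c-kit- range.

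Kl (gene ID 16591, chromosome 5) encodes α-Klotho, the co-receptor that FGF23 needs in the kidney. It was at 3.31, 3.54 and 3.36 on the c-kit- and at 3.43, 3.78 and 3.43 on the c-kit+ arrays, a log2 fold change of -0.14 (95% interval -0.45 to 0.16, adjusted p = 0.548 from limma). Klb (gene ID 83379, chromosome 5) encodes β-Klotho, which serves FGF15 and FGF21 in liver and fat. It was at 4.96, 5.02 and 4.80 against 4.77, 5.06 and 4.93, a log2 fold change of 0.01 (95% interval -0.27 to 0.28, adjusted p = 0.982 from limma). Neither co-receptor gene parted the populations. In all, 4 of the 7 genes lie on chromosome 5, and 2 of those 4 were called lower, as were 8.79% of all genes. The share of called genes on chromosome 5 was not computed, so no pattern by chromosome can be read from this.

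**Figure D3:**
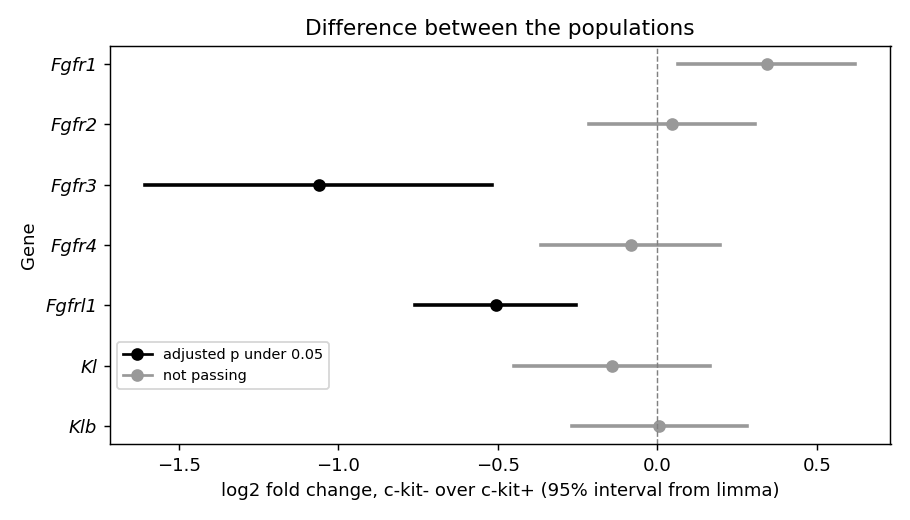
Log2 fold change of each gene (horizontal axis, c-kit- over c-kit+) with its 95% interval from limma, for the 7 genes (vertical axis), with those that passed in black. The intervals of Fgfr3 (-1.60 to -0.52) and Fgfrl1 (-0.76 to -0.25) lie below 0, that of Fgfr1 (0.07 to 0.62) lies above it without passing after adjustment, and the other 4 include 0.

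The table has no detection call, so the olfactory receptor genes, most of which are silent outside the nose, serve as a guide to weak signal. The 95th percentile of these 1074 genes was 4.74 to 5.07 on the 6 arrays. Fgfr2, Fgfr4 and Kl lay below it on all 6 arrays and Klb on 4 of them, while Fgfr1 and Fgfrl1 were above it on all. Fgfr3 was below it on c-kit- replicate 3 alone. Probes differ in brightness, so a value in this range does not show that a gene is silent.

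The array of c-kit+ replicate 2 gave the highest c-kit+ value for 5 of the 7 genes, including Fgfr1, Fgfr3 and Fgfrl1. Over all genes, this array had the highest median, 5.33, and the highest lower quartile, 3.995 against 3.855 to 3.914 on the others. Its upper quartile was the lowest, 7.12 against 7.16 to 7.20. The share of all genes that were highest on this array was not computed, so the 5 of 7 does not set the family apart. Without c-kit+ replicate 2 both calls were lost, as given above. Over all genes, that fit called 1727 higher and 1497 lower, against 2331 and 2196 with all arrays. Leaving out c-kit+ replicate 1 gave 1746 and 1478, and leaving out c-kit+ replicate 3 gave 1758 and 1536. Fewer genes were thus called over all genes whichever c-kit+ array was removed. The mean of the leukocyte markers was 6.12, 5.99 and 5.19 on c-kit+ replicates 1, 2 and 3, against 4.99 to 5.19 on the c-kit- arrays. With c-kit+ replicates 1 and 2 left out, which leaves 1 array assumed to vary like the others, the log2 fold change of Fgfr3 was -0.80 and that of Fgfrl1 -0.42, and neither passed (adjusted p = 0.288 and 0.264 from limma). The mean of the peritubular myoid markers was 5.86 to 6.05 on the c-kit+ and 5.40 to 5.63 on the c-kit- arrays, so it was higher on the same side as Fgfr3 and Fgfrl1. The part of either cell type in these results was not tested. In such bulk samples, fewer cells with a transcript and less of it per cell cannot be told apart.

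The genes nearest to Fgfr3 in pattern were Mipol1, Hmg20b, Trpt1, Nr2f2 and Nudt22. Likeness was the root mean square difference of the 6 array values, each gene centred on its own mean, and it ran from 0.07 to 0.15 on the log2 scale for these genes. Nr2f2 encodes an orphan nuclear receptor that is also a marker of interstitial cells, and Hmg20b a protein of a chromatin complex. For Fgfrl1 the nearest were Rab17, Fam122a, Arrdc1, Morc2b and Mfsd2b, at 0.03 to 0.05. Within 0.15 there were 4 genes for Fgfr3 and 1449 for Fgfrl1. The log2 fold change was -1.06 for Fgfr3 and -0.51 for Fgfrl1, so a fixed distance is wider relative to the change of Fgfrl1. The counts therefore do not show which pattern is more common.

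The genes that act with the receptors were taken as 8 lists of 101 genes, of which 100 were measured and Spry3 was not analysed here. Of the 100, 25 were higher in c-kit- cells, 15 were lower and 60 did not pass, against 9.33% higher and 8.79% lower over all genes. The lists were chosen with earlier results of these data known, so these counts describe the lists and test nothing. Etv5 is also among the listed genes of undifferentiated spermatogonia. The median log2 fold change was -0.04 for these 100 genes and -0.04 for all genes. Feedback inhibitors and target transcription factors held 12 of the 25 higher genes, and the secreted ligands and surface partners held none.

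**Figure D4:**
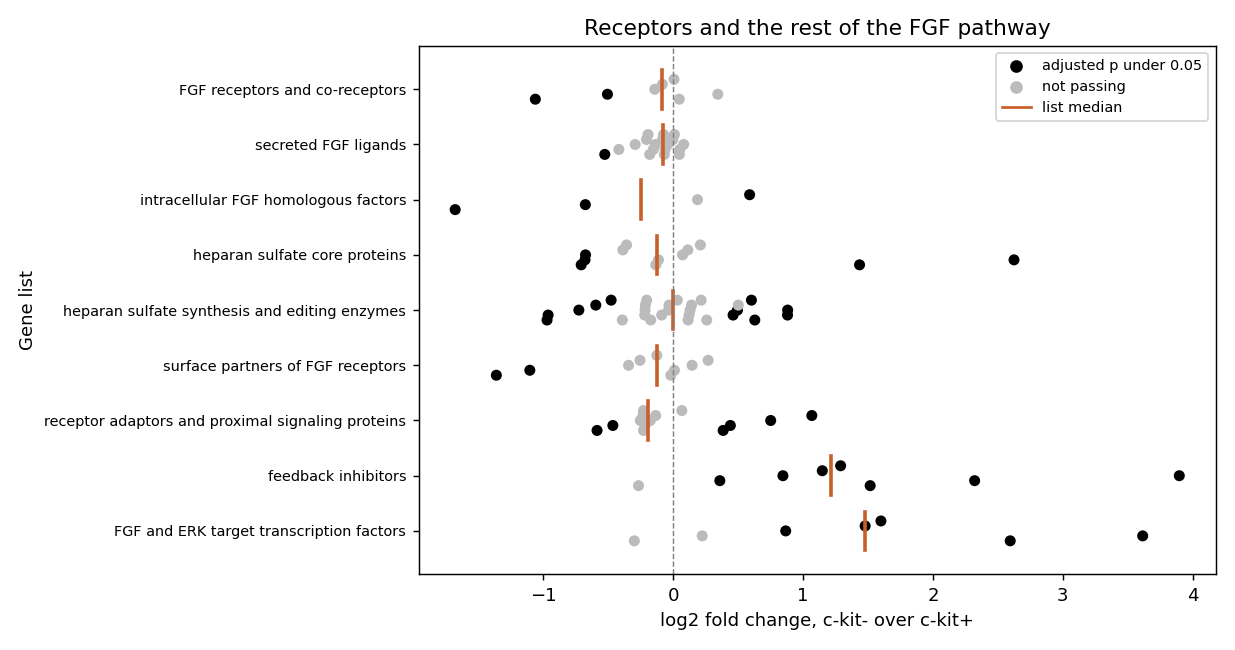
Log2 fold change (horizontal axis, c-kit- over c-kit+) of each gene in the receptor list and the 8 pathway lists (vertical axis), with genes that passed at an adjusted p under 0.05 in black, others in grey and the list median as an orange bar. The medians lie between -0.24 and 0.00 except for feedback inhibitors (1.22) and target transcription factors (1.48).

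Of 18 secreted FGF ligands, 1 was lower in c-kit- cells, none was higher and 17 did not pass, with a list median of -0.08. The lower gene was Fgf4, an FGF of early embryos, at 4.27, 4.35 and 4.44 on the c-kit- and 4.87, 5.01 and 4.75 on the c-kit+ arrays, all 6 below the 95th percentile of the olfactory receptor genes. Its log2 fold change was -0.53 (adjusted p = 0.0139 from limma), and it did not pass without c-kit+ replicate 2 (adjusted p = 0.0514 from limma). Fgf2, the factor used in culture, was at 5.24 ± 0.20 and 5.31 ± 0.04 (log2 values, SD, n = 3). The hormone-like ligands of the Klotho co-receptors, Fgf15, Fgf21 and Fgf23, had log2 fold changes of 0.05, -0.14 and -0.06, and none passed.

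The 4 intracellular FGF homologous factors bind sodium channels and other proteins inside the cell and are not secreted. Fgf11 was at 4.84, 4.64 and 4.87 on the c-kit- and at 6.66, 6.53 and 6.20 on the c-kit+ arrays, a fitted log2 fold change of -1.68 (adjusted p = 0.000192 from limma). Its 3 c-kit- values lay below the olfactory receptor guide. Fgf13 was also lower in c-kit- cells (-0.68), and Fgf12 was higher (0.59), a call that did not hold when c-kit+ replicate 1 or 2 was removed (limma's adjusted p 0.0558 to 0.0583). Fgf12 lay below the olfactory receptor guide on 1 c-kit+ array, and Fgf14 did not pass. With 3 of 4 genes called and both directions among them, the list had a median of -0.24.

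Of 12 core proteins that carry heparan sulfate, 2 were higher in c-kit- cells, 3 were lower and 7 did not pass. Sdc4, a syndecan of the cell membrane, was at 11.09, 10.96 and 10.85 on the c-kit- and at 8.25, 8.37 and 8.41 on the c-kit+ arrays, a log2 fold change of 2.62 (adjusted p = 1.34e-05 from limma). Gpc4, a glypican anchored to the membrane by lipid, was at 6.91 ± 0.34 and 5.48 ± 0.10 (log2 values, SD, n = 3), a log2 fold change of 1.43. The lower genes were Agrn (-0.71) and Hspg2 (-0.68), which encode proteoglycans of basement membranes, and Sdc1 (-0.68), another syndecan. The median of the list was -0.12.

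Of 28 enzymes that build or edit heparan sulfate, 6 were higher in c-kit- cells, 5 were lower and 17 did not pass, with a median of 0.00. Among the higher genes, Sulf1, which removes sulfate from finished chains outside the cell, was at 6.48 ± 0.13 and 5.60 ± 0.09 (SD, n = 3) and had a log2 fold change of 0.88. Ndst2, an N-deacetylase and N-sulfotransferase, had 0.88, Extl2 had 0.63 and the 3-O-sulfotransferase gene Hs3st1 had 0.60. Among the lower genes were Xylt1 (-0.97), which starts the chain on the core protein, Ext2 (-0.96), a subunit of the chain-extending polymerase, the 6-O-sulfotransferase gene Hs6st2 (-0.73) and the linker enzyme gene B3galt6 (-0.60). Extl2 did not pass without c-kit+ replicate 3 (adjusted p = 0.0515 from limma) and B3galt6 without c-kit+ replicate 1 or 3 (0.0580 to 0.0582), while Hs3st1 and Hs6st2 did not pass in 5 and 4 of the 6 fits with an array left out (adjusted p up to 0.119 and 0.0957 from limma). The other called enzyme genes, Ext1, Extl1 and Glce, each did not pass in 5 of these fits. B3galt6 lay below the olfactory receptor guide on the 3 c-kit- arrays, Hs6st2 on 1 c-kit- array and Extl1 on all 6 arrays.

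Of 9 genes of proteins that meet FGF receptors at the cell surface, 2 were lower in c-kit- cells, none was higher and 7 did not pass. Cdh2, the gene of N-cadherin, was at 5.89, 5.75 and 5.56 on the c-kit- and at 7.24, 7.15 and 6.90 on the c-kit+ arrays, a log2 fold change of -1.36 (adjusted p = 0.000373 from limma). Flrt1, a leucine-rich repeat protein that associates with FGF receptors, was at 5.01 ± 0.16 and 6.11 ± 0.24 (SD, n = 3), a log2 fold change of -1.10. Both lay on the same side as Fgfr3 and Fgfrl1. Flrt1 was below the olfactory receptor guide on 1 c-kit- array.

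Of 14 adaptors and proximal signaling proteins, 4 were higher in c-kit- cells, 2 were lower and 8 did not pass, with a median of -0.20. Sos2, which loads RAS with GTP, was at 6.13, 5.80 and 5.77 on the c-kit- and at 5.08, 4.80 and 4.63 on the c-kit+ arrays, a log2 fold change of 1.07. On 2 c-kit+ arrays Sos2 lay below the olfactory receptor guide. The ubiquitin ligase gene Cblb (0.75), the docking protein gene Gab1 (0.44) and Sos1 (0.38) were the other higher genes, and the adaptor gene Crk (-0.59) and the ubiquitin ligase gene Cbl (-0.46) were lower. Gab1, Sos1 and Cbl did not pass in 5, 6 and 5 of the 6 fits with an array left out (adjusted p up to 0.103, 0.107 and 0.144 from limma). Frs2, the main adaptor of FGF receptors, was at 7.60, 8.22 and 8.40 on the c-kit- and at 8.33, 8.19 and 8.37 on the c-kit+ arrays and did not pass (adjusted p = 0.504 from limma).

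Of 8 feedback inhibitors of FGF and ERK signaling, 7 were higher in c-kit- cells, none was lower and Spred3 did not pass. Of the 7, Spred1 (adjusted p = 0.0466 from limma) lost its call with any 1 array left out (0.0709 to 0.147). Spry4 was at 7.25, 6.70 and 7.02 on the c-kit- and at 4.50, 5.06 and 4.45 on the c-kit+ arrays, a fitted log2 fold change of 2.32 (adjusted p = 0.000192 from limma), and its 3 c-kit+ values lay below the olfactory receptor guide. Il17rd, also called Sef, a membrane protein that binds FGF receptors, was at 7.37 ± 0.06 and 5.85 ± 0.20 (SD, n = 3), a log2 fold change of 1.52. Dusp6, the ERK phosphatase gene, had 3.90 and Spry2 had 1.29. Spry1 was below the olfactory receptor guide on 2 c-kit+ arrays. Of 7 target transcription factors, 5 were higher, none was lower, and Etv1 and Myc did not pass. Among the 5, Etv4 lay below the olfactory receptor guide on 1 c-kit+ array and Ier2 on 2. The log2 fold change was 3.61 for Etv5, 2.59 for Egr1, 1.60 for Fos and 1.48 for Etv4. These genes answer to GDNF and its receptor Ret as well as to FGFs, and the arrays do not part the inputs. Without c-kit+ replicates 1 and 2, the counts over the 8 lists were 10 higher and 3 lower, and the feedback genes Dusp6, Spry4, Spred2 and Il17rd and the targets Etv5, Egr1, Fos and Etv4 were among those still called (adjusted p = 0.00449 to 0.0494 from limma).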

How the data were processed

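The deposited log2 values were made by the authors with RMA (robust multi-array average), so background correction, quantile normalization and probe summary had been done. The RMA version and probe set definition used are not given in the sources used here. Complementary DNA came from 500 pg of total RNA, amplified by the Ovation Pico V2 protocol. The table holds 1 value per gene ID and array, and no value was filtered or rescaled. Names came by gene ID from RefSeq (GRCm38.p6, 24481 genes) and the platform table (93), and 399 stayed unnamed.

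All 24973 genes were fitted with limma 3.58.1 in R 4.3.3 (lmFit, eBayes), on population alone, with Benjamini-Hochberg adjustment. The per-gene test of the methods, with no shared variance, was an alternative. Exact permutation tests used scipy 1.17.1. The members and lists were chosen with earlier results of these data known. Named were all members, Kit, up to 4 called genes of each list and direction by size of change, and the 5 genes most like each called member. Further called genes were named where a limit or another fit concerned them, and some genes that did not pass were named as well. Array number, 3 per group, limits precision. The fit was tested on simulated data with independent noise, where 50 of 24973 genes were changed at each fold. It called 28% of 1.5-fold, 72% of 2-fold and 96% of 3-fold changes, with 4 false calls among 150. Far fewer genes were changed there than the 18.1% called in the data, so these rates need not hold here. A gene that did not pass may still differ by a small fold. Alternatives covered array scaling, a filter on weak genes, variance models, the call rule, the replicate number as a block, and arrays left out.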

Additional observations from a re-analysis of the deposited data

How the results depend on the processing

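The 3 other scalings of the arrays, a prior variance that was robust or followed the mean, weighted arrays and the fit with genes above the median alone left Fgfr3 and Fgfrl1 lower in c-kit- cells and called. The per-gene test with no shared variance kept Fgfrl1 and lost Fgfr3 (log2 fold change -1.06, adjusted p = 0.131), leaving 1 lower gene. Under the rule of fold and unadjusted p, 1 gene was lower with limma's p (Fgfr3) and 0 with the per-gene p, a setting chosen after seeing the data. Without c-kit+ replicates 1 and 2, 0 genes were lower, Fgfr3 was at -0.80 and Fgfrl1 at -0.42, Klb turned to -0.00546, and the other pathway genes numbered 10 higher and 3 lower. The filter on weak genes left no value for Fgfr2, Fgfr4, Kl and Klb. Over all genes, leaving out those 2 arrays gave 527 higher and 239 lower, and the per-gene test 1307 and 1205, against 2331 and 2196.

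With each array left out in turn, the log2 fold change was -1.29 to -0.87 for Fgfr3, -0.55 to -0.43 for Fgfrl1, 0.28 to 0.43 for Fgfr1, -0.0335 to 0.113 for Fgfr2, -0.18 to -0.01 for Fgfr4, -0.21 to -0.03 for Kl and -0.0677 to 0.0742 for Klb. The number of lower genes was 0 to 2, of higher genes 0 throughout, and of other pathway genes 18 to 21 higher and 11 to 14 lower. With the replicate number as a block, Fgfr3 (-1.06, adjusted p = 0.00919 from limma) and Fgfrl1 (-0.51, adjusted p = 0.0268) stayed lower, and the pathway counts were 24 and 15. Deviations of same-numbered arrays correlated by 0.0999, 0.0973 and 0.137 across genes, and those of different-numbered arrays by -0.0879 to -0.0174. The main fit was left unpaired, as the labels do not say whether same-numbered samples came from the same mice. These correlations do not show that the arrays share only a number. Each array correlated best with its own number, in the data and not by design, and no chance value was computed for this. The cause of these differences was not tested.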

Other observations

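Some genes carry FGF or its receptor in their name or older name but encode no receptor, and they were looked at after the values were seen. Cep43, formerly Fgfr1op, encodes a centrosome protein first found fused to FGFR1 in leukemia. Its means were 9.32 ± 0.03 (c-kit-) and 9.39 ± 0.13 (c-kit+) (log2 values, SD, n = 3, adjusted p = 0.728 from limma). Fgfr1op2 was at 9.17 ± 0.18 and 9.47 ± 0.05, with all c-kit- arrays below all c-kit+ arrays (adjusted p = 0.138 from limma). Fibp, which binds FGF1 inside the cell, was at 8.99 on c-kit- replicate 1 and at 8.23 to 8.58 on the other 5 arrays (adjusted p = 0.813 from limma). None of the 3 passed the test.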
